A study of Caenorhabditis elegans with 12 samples.

Results

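Aging of self-fertile Caenorhabditis elegans hermaphrodites was examined by setting 3 libraries of wild-type adults on the sixth day of adulthood against 3 libraries of wild-type adults on the first day. These 6 libraries were chosen by their labels alone, out of 12 libraries in the series. The sixth-day and first-day wild-type animals were strain N2, and the other 6 libraries came from strain JK574, a fog-2 loss-of-function mutant, written fog-2(lf), on the same N2 background and at the same 2 ages, with 3 libraries per age. An XX fog-2(lf) animal makes oocytes but no sperm of its own, so it is female, whereas an N2 hermaphrodite fertilises its own oocytes. Each library was polyadenylated RNA from a pool of whole synchronized animals grown at 20 degrees on Escherichia coli OP50, and it therefore mixed somatic tissue and germ line. By the account of the study, first-day adults were collected before they held visible embryos, and the sixth-day wild type had used up its own sperm and finished laying eggs. In such whole-animal RNA, fewer cells of a type and less RNA per cell cannot be told apart.

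The adult hermaphrodite is built from a small fixed set of somatic cells, none of which divide in the adult, around a germ line that keeps producing oocytes. Its intestine digests bacteria, stores fat and makes yolk for the oocytes, its epidermis secretes a collagen cuticle, and its body wall muscle is striated. The animal stores a limited supply of self sperm made before adulthood, and fertility falls once that supply has been used.

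Gene levels are given in CPM, that is estimated counts summed over the isoforms of a gene and scaled to a common library size by the library total and a trimmed-mean (TMM) factor. A change is sixth day over first day, and was called where the edgeR quasi-likelihood test, with Benjamini-Hochberg adjustment over all 14576 genes tested, gave an adjusted p under 0.1. Of these genes, 3417 (23.4%) were higher and 3699 (25.4%) were lower on the sixth day, and the median log2 change over all of them was -0.0028. Scaling by library totals alone moved that median to 0.42 and the calls to 7613 higher and 1784 lower, so 81.02% of calls were then increases, against 48.02% with the TMM factors. Directions are therefore relative to the median gene, and the split under library totals is given beside a list or family where it shifts by more than 10 points of the share of calls. Wild-type libraries held 27205950 to 28317413 estimated counts on the sixth day and 21162593 to 33446580 on the first day. The yolk protein genes vit-1 to vit-6 took 0.98% to 1.86% of counts in the sixth-day libraries, against 7.16% to 15.5% in the first-day libraries. Replicate 2 of the first-day wild type stood apart from the other first-day wild-type libraries, with a Spearman correlation over genes of 0.9681 with replicate 1 and 0.9647 with replicate 3, where replicates 1 and 3 had 0.9855 with each other.

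**Figure D1:**
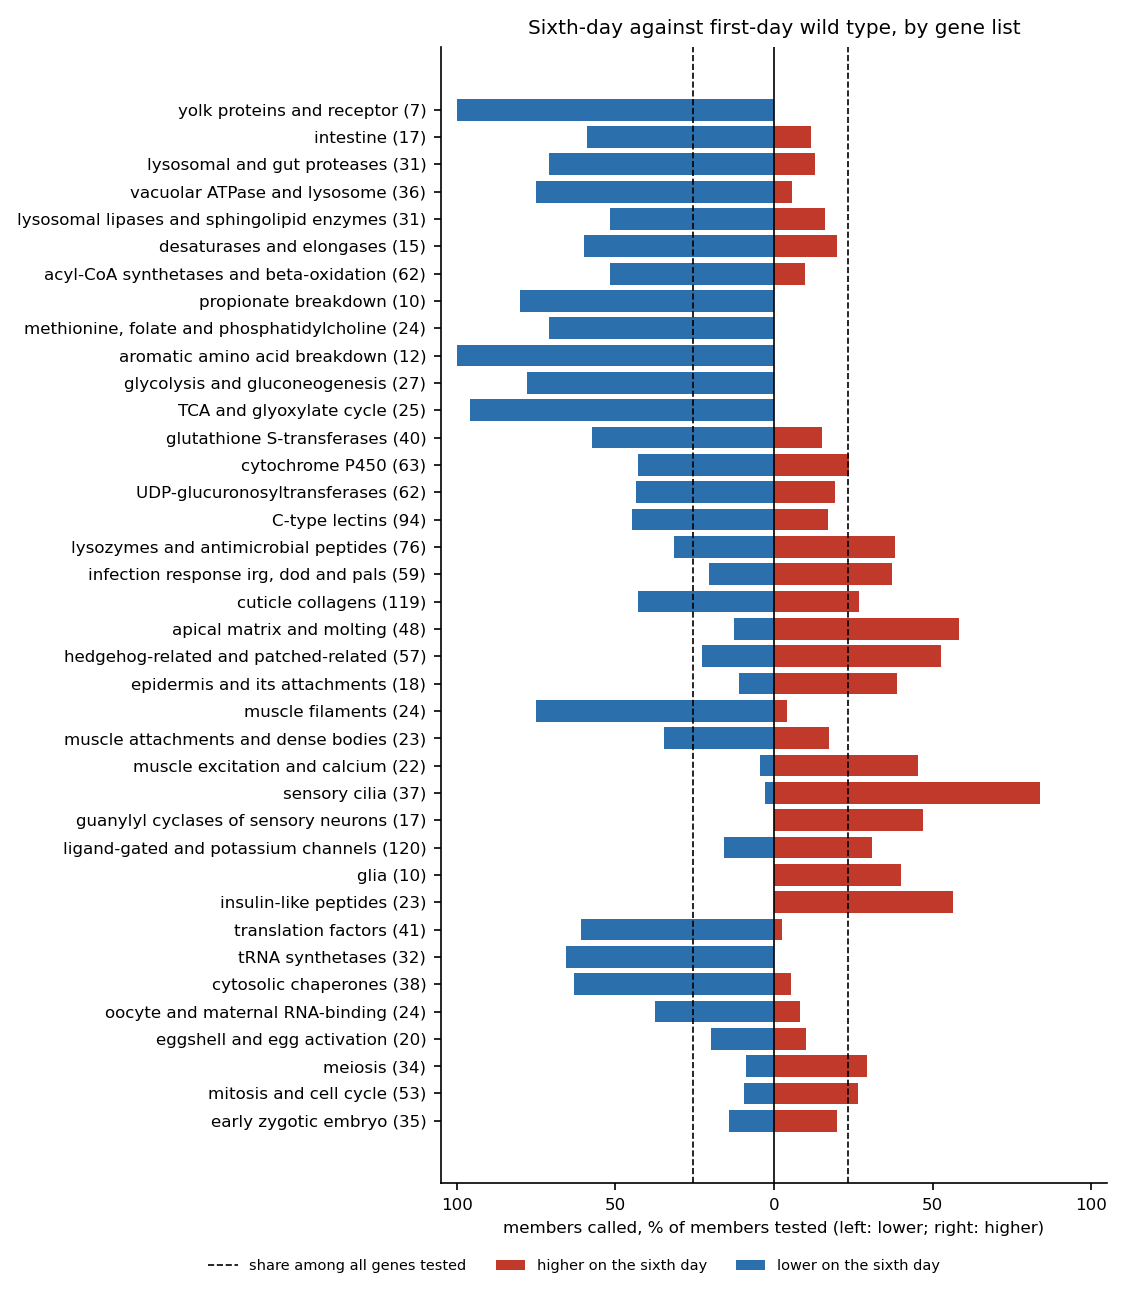
Share of the tested members of each tissue or function list that was higher (right) or lower (left) on the sixth day in wild type, in percent, with the shares over all genes tested as reference lines (23.4% higher and 25.4% lower). Gut, yolk, protease and carbon metabolism lists lie mostly to the left, and the cilium list and the tested apical matrix genes mostly to the right. A matrix gene low on the first day could pass the low-count filter through the sixth-day libraries. The translation, tRNA synthetase, chaperone and oocyte lists lean left here and right under library totals.

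Most marker genes of the intestine were lower on the sixth day. Of 17 gut marker genes, 10 were lower and 2 higher, with a median log2 change of -1.01, and their summed level was 435 to 591 CPM in sixth-day libraries, against 1392 to 1459 CPM in first-day libraries. The 2 that were higher, ifo-1 and ifp-1, encode parts of the intermediate filament layer under the gut lumen, and neither was called without sixth-day replicate 3 or without first-day replicate 1 of the wild type, while only 1 was called without first-day replicate 2 or 3. vha-6, the subunit of the proton pump on the lumenal face of the gut, was at 37, 35.1 and 30.4 CPM in the sixth-day libraries, against 234, 268 and 265 CPM in the first-day libraries. The groups were far apart, with a log2 change of -2.9 ± 0.1 (SE, n = 3 each, edgeR adjusted p = 5.27e-08). act-5, the actin of the gut microvilli, was at 33.9, 59.7 and 106 CPM on the sixth day and 464, 436 and 365 CPM on the first (log2 change -2.66 ± 0.38, edgeR adjusted p = 0.000325). pho-1, a gut acid phosphatase, was at 2.66, 2.48 and 3.52 CPM in old animals, against 42.7, 48 and 24.1 CPM in young ones, 13.3-fold lower. The oligopeptide transporter pept-1 fell by 2.46 on the log2 scale, and the log2 changes of the filament gene ifb-2 and the gut esterase ges-1 were -1.88 and -1.51.

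The fall of vha-6 was larger in hermaphrodites than in females. In fog-2(lf), vha-6 was at 47.8, 51.7 and 48.1 CPM on the sixth day and 129, 111.7 and 129 CPM on the first, and its age change exceeded the wild-type one by 1.58 ± 0.13 on the log2 scale (edgeR interaction, adjusted p = 0.00102). The sixth-day libraries of both genotypes lay between 30.4 and 51.7 CPM, whereas the first-day libraries of the wild type lay well above those of fog-2(lf). For act-5 and pho-1 the interaction was not called (edgeR adjusted p = 0.501 and 0.257).

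**Figure D2:**
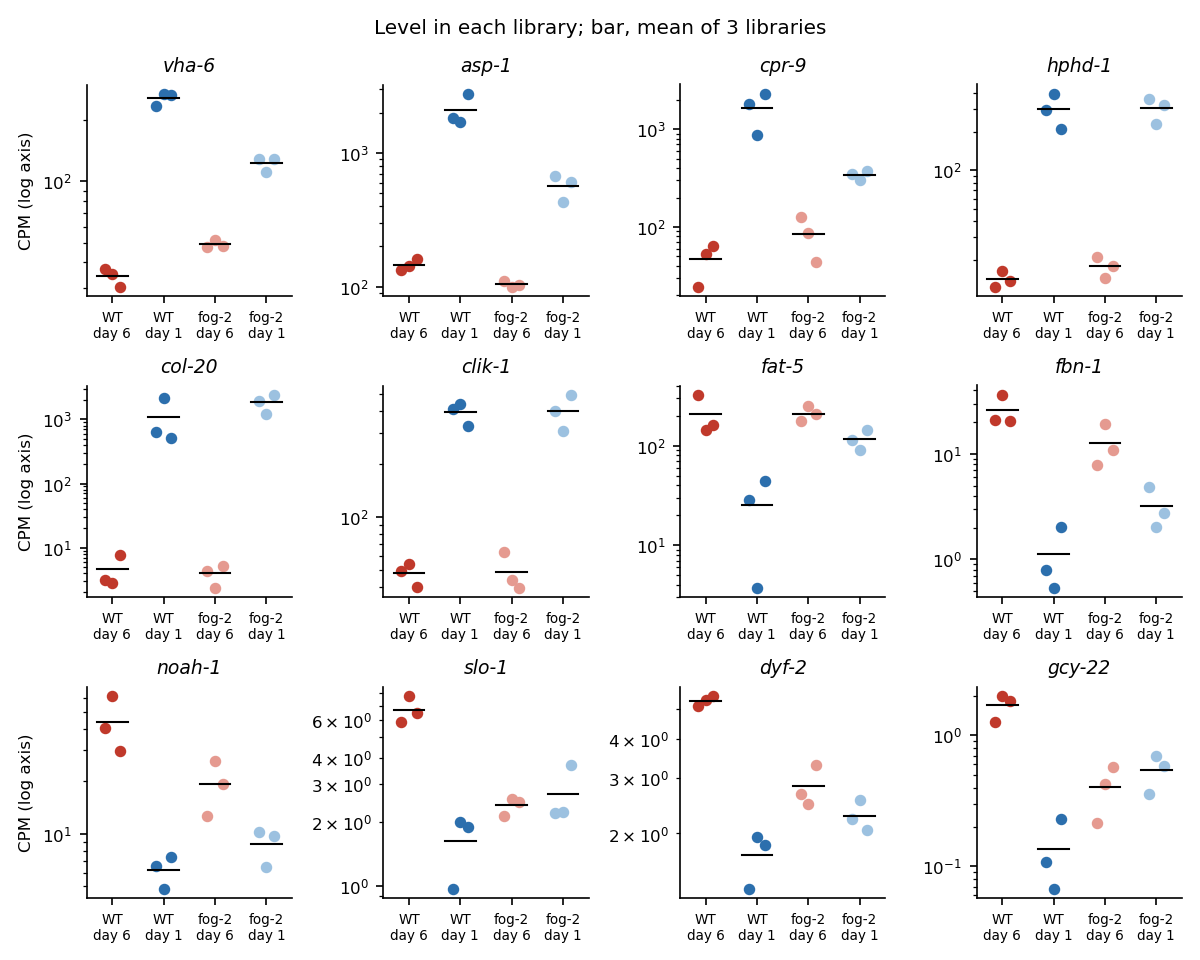
Levels of representative genes in each library, in CPM on log axes, with sixth-day libraries (red) left of first-day libraries (blue) within each genotype and a bar at the mean of 3 libraries. Sixth-day wild-type vha-6 lies at 30.4 to 37 CPM, below all first-day wild-type libraries at 234 to 268 CPM.

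Digestive and lysosomal proteases fell widely. Of 31 tested cathepsin, aspartyl protease and carboxypeptidase-like genes, 22 were lower and 4 higher, with a median log2 change of -2.28. All 35 genes of the list summed to 2375 to 2720 CPM in sixth-day libraries, against 9592 to 19673 CPM in first-day libraries. The members went down across families: 9 of 13 asp genes, 6 of 8 cpr genes and 5 of 7 ctsa genes were lower, and no ctsa gene was higher (2 were under library totals, and 1 without sixth-day wild-type replicate 3, sixth-day fog-2(lf) replicate 3 or first-day fog-2(lf) replicate 2). cpr-9, a cathepsin B-like protease, was at 24.5, 53.3 and 64.4 CPM on the sixth day, against 1804, 882 and 2287 CPM on the first. This 35-fold drop left no overlap between the ages (log2 change -5.13 ± 0.51, edgeR adjusted p = 3.66e-05). The aspartyl protease asp-1 was at 132, 144 and 162 CPM in old hermaphrodites, against 1828, 1696 and 2765 CPM in young ones, 14.3-fold lower. ctsa-3.1, a cathepsin A-like gene, was 38.5-fold lower, at 0.896, 1.77 and 1.53 CPM on the sixth day and 55.8, 58.4 and 47.4 CPM on the first.

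In 17 of the 31 protease genes the age change exceeded the wild-type one in fog-2(lf) (13 to 21 when any 1 library was left out), and in 1 it was more negative. Over all genes tested, 1072 (7.35%) had a positive and 1151 (7.9%) a negative difference between the age changes, against 413 and 2779 under library totals. That total rests on single libraries: 2223 genes in all were called for this interaction, but 3302 without first-day wild-type replicate 2, 1021 without sixth-day fog-2(lf) replicate 1, 1039 without sixth-day wild-type replicate 2, 1071 without first-day fog-2(lf) replicate 3, 1350 without sixth-day fog-2(lf) replicate 2, 1408 without sixth-day wild-type replicate 3 and 1425 without first-day fog-2(lf) replicate 1. The called single-gene genotype differences that are given with an adjusted p, here and in the other paragraphs, kept their calls with each library left out in turn. For cpr-9 the difference was 3.13 ± 0.62 on the log2 scale, for asp-1 1.39 ± 0.27 and for ctsa-3.1 2.79 ± 0.38 (edgeR adjusted p = 0.0211, 0.021 and 0.00851).

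Yolk genes followed the same direction. All 7 tested yolk protein and yolk receptor genes were lower on the sixth day, with a median log2 change of -3.31. vit-2, which encodes a vitellogenin secreted by the gut, was at 3669, 4615 and 2809 CPM in sixth-day libraries, against 35272, 20687 and 53960.5 CPM in first-day libraries (log2 change -3.31 ± 0.33, edgeR adjusted p = 3.66e-05). Its 9.91-fold drop in wild type was deeper than in fog-2(lf), where it was at 5714, 4846 and 4314 CPM on the sixth day and 11070.1, 11366 and 15319 CPM on the first, a difference of 1.96 ± 0.43 (edgeR interaction, adjusted p = 0.0271). Of the 7 genes, 6 had such a positive interaction, but 3 did without sixth-day fog-2(lf) replicate 1.

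Most genes of the lysosome were lower. Of 36 tested genes for the vacuolar proton pump and lysosomal proteins, 27 were lower and 2 higher (median -0.79), against 22 and 9 under library totals. Within them, 18 of 20 vha pump subunits and 5 of 6 scav scavenger receptor-like genes were lower and none was higher with the TMM factors (under library totals 2 vha genes were higher and 16 lower, and 1 scav gene was higher and 4 lower). vha-3, a membrane subunit of the pump, was at 61.8, 63.4 and 57.3 CPM on the sixth day and 208, 259.8 and 172 CPM on the first, 3.5-fold lower. nuc-1, the DNase II that degrades DNA of dead cells and of food in lysosomes, was at 35.1, 38.6 and 20.1 CPM in old hermaphrodites, against 162, 75 and 269 CPM in young ones. In fog-2(lf) nuc-1 was not called with age (log2 change -0.06, edgeR adjusted p = 0.923), and the interaction was 2.37 ± 0.58 (edgeR adjusted p = 0.0375).

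Lysosomal lipases and enzymes of sphingolipids were more mixed, with 16 of 31 lower and 5 higher, against 14 and 11 under library totals, and a median of -0.7. lipl-5, a lysosomal acid lipase, was at 102.8, 73.6 and 39.8 CPM in sixth-day libraries and 1117, 424 and 1251 CPM in first-day libraries, and fell by 3.69 on the log2 scale. asah-1, an acid ceramidase that releases sphingosine, was at 8, 12.9 and 3.03 CPM on the sixth day, against 127, 69.9 and 284 CPM on the first, a 20.1-fold drop without overlap. gba-4, a homologue of glucocerebrosidase, was 38.1-fold lower. The age change of asah-1 differed by 3.9 ± 0.83 between genotypes and that of lipl-5 by 2.68 ± 0.66 (edgeR interaction, adjusted p = 0.0257 and 0.0376), and 9 of the 31 genes had a positive interaction (6 to 10 with 1 library left out). For gba-4 the log2 change was -5.25 in hermaphrodites and -4.98 in females, and its difference of 0.27 ± 0.55 was not called (edgeR interaction, adjusted p = 0.79).

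Genes of fatty acid desaturation, elongation and breakdown were more often lower than higher, and other lipid genes were mixed. Of 33 genes for lipid synthesis, droplets and binding, 11 were lower and 6 higher (median -0.24), against 8 and 12 under library totals. Only 3 were higher without sixth-day replicate 1 or 2 or first-day replicate 1 of the wild type. Among 15 desaturases and elongases, 9 were lower and 3 higher, of which only 1 was higher without sixth-day wild-type replicate 1 or 3. elo-2, an elongase that acts on palmitate, was at 7.51, 11.8 and 13.2 CPM on the sixth day, against 143, 92.2 and 132 CPM on the first, 11.3-fold lower (log2 change -3.5 ± 0.37, edgeR adjusted p = 5.19e-05). In the opposite direction, fat-5, a desaturase that also acts on palmitate, was at 322, 143 and 159.7 CPM in old animals, against 28.5, 3.74 and 44.6 CPM in young ones. The ages did not overlap for fat-5, whose log2 change was 3.04 ± 0.64 (edgeR adjusted p = 0.00333). Of 62 acyl-CoA synthetase and beta-oxidation genes, 32 were lower and 6 higher (median -0.43), against 21 and 17 under library totals, including 5 lower of the 7 tested acox genes, the acyl-CoA oxidases of peroxisomes. cpt-3, which belongs to the carnitine palmitoyltransferases that pass fatty acids into mitochondria, was among the 6 that rose, at 68.2, 10.1 and 12.2 CPM on the sixth day and 0.432, 0.169 and 1.38 CPM on the first.

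Pathways that break down amino acids and propionate were lower with few exceptions. Of 10 genes for propionate breakdown, 8 were lower and none higher (median -1.04), against 7 and 2 under library totals. hphd-1, the hydroxypropionate transhydrogenase of the vitamin B12-independent propionate shunt, was at 12.4, 16.3 and 13.6 CPM in sixth-day libraries, against 294, 391 and 208 CPM in first-day libraries, 21.1-fold lower, and its log2 change was -4.4 in hermaphrodites, against -4.09 in females. All 12 tested genes for breakdown of aromatic amino acids were lower (median -1.39), among them hpd-1, a step of tyrosine breakdown, with a log2 change of -1.71, and kynu-1, the kynureninase of tryptophan breakdown, with -1.58. Of 24 genes for methionine, folate and phosphatidylcholine metabolism, 17 were lower and none was higher, although 3 were higher without first-day wild-type replicate 2, 1 without sixth-day or first-day replicate 3, and 6 higher and 10 lower under library totals. pmt-2, a methyltransferase on the route to phosphatidylcholine, was at 37.9, 31 and 29 CPM on the sixth day and 395, 439 and 311 CPM on the first. The mitochondrial glycine decarboxylase gldc-1 was at 11.4, 9.63 and 10.5 CPM, against 98.7, 81.1 and 80.4 CPM on the first day. sams-1, which makes the methyl donor S-adenosylmethionine, fell by 2.76 on the log2 scale. The pmt-2 and gldc-1 drops were steeper in hermaphrodites, with interactions of 1.44 ± 0.35 and 1.49 ± 0.34 (edgeR adjusted p = 0.0363 and 0.0298).

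Central carbon metabolism was lower by smaller amounts. Of 27 glycolytic and gluconeogenic genes, 21 were lower and none higher (median -0.55), against 11 and 6 under library totals. Of 25 genes of the citric acid and glyoxylate cycles, 24 were lower and none higher (median -0.63), against 13 and 1 under library totals (median -0.21). pyk-2, a pyruvate kinase, was at 26.5, 27.5 and 19.8 CPM in old hermaphrodites, against 75, 87.4 and 67.7 CPM in young ones. The citrate synthase cts-1 was at 430.4, 478 and 437 CPM on the sixth day, against 753, 998 and 932 CPM on the first, a log2 change of -0.996 ± 0.1 (edgeR adjusted p = 3.97e-05). icl-1, the fused enzyme of the glyoxylate cycle, fell by 1.59 on the log2 scale. Replicates of pyk-2 and cts-1 were tight at both ages.

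Detoxification genes were lower more often than higher. Of 40 glutathione transferases, 23 were lower and 6 higher (median -0.99). gst-27 was at 1.98, 1.93 and 1.53 CPM in sixth-day libraries, against 45, 27.7 and 47.8 CPM in first-day libraries, 22.1-fold lower. Of 62 UDP-glucuronosyltransferases, which attach sugars to lipophilic compounds, 27 were lower and 12 higher (median -0.59), against 21 and 20 under library totals, with ugt-22 at 13.4, 18.8 and 12.2 CPM on the sixth day and 253, 326 and 160.4 CPM on the first. Of 63 cytochrome P450 genes, 27 were lower and 15 higher, and their median of -0.42 became 0.01 under library totals, with 17 lower and 22 higher. cyp-35A5 was at 0.494, 0.773 and 0.489 CPM in old animals, against 26.3, 31.1 and 15.6 CPM in young ones, 41.4-fold lower. Of 47 short-chain and aldehyde dehydrogenases and flavin oxygenases, 25 were lower and 5 higher, or 3 higher without sixth-day wild-type replicate 1, against 20 and 15 under library totals. The dehydrogenase dhs-25 fell by 3.38 on the log2 scale, and fmo-2, a flavin monooxygenase, was at 0.402, 4.51 and 3.88 CPM on the sixth day, against 96.3, 15.4 and 333 CPM on the first. gst-27 and cyp-35A5 fell less in fog-2(lf), by 1.86 ± 0.42 and 3.19 ± 0.68 on the log2 scale (edgeR interaction, adjusted p = 0.0303 and 0.0257). ftn-1, a ferritin that stores iron in the gut, went up, at 51.3, 54.3 and 29.4 CPM in sixth-day libraries and 14.8, 7.04 and 14.4 CPM in first-day libraries.

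Secreted immune effectors moved in both directions. Of 94 C-type lectins that passed the low-count filter, out of 234 in the annotation, 42 were lower and 16 higher (median -0.82), against 37 and 25 under library totals. clec-50 was at 39, 36.5 and 23.8 CPM on the sixth day, against 579, 248 and 594 CPM on the first. clec-266 went the other way in wild type, at 147, 130.1 and 79.1 CPM on the sixth day, against 12.4, 6.84 and 29.1 CPM on the first, but in fog-2(lf) it was at 42.6, 86.6 and 55.8 CPM on the sixth day, against 93.6, 37.8 and 109.6 CPM on the first. That genotype difference was -3.28 ± 0.73 (edgeR interaction, adjusted p = 0.0283). Of 76 lysozymes and antimicrobial peptides, 29 were higher and 24 lower, and 19 were higher without sixth-day wild-type replicate 1, against 36 higher and 18 lower under library totals. Here 14 of 24 spp genes, which encode saposin-like proteins that can permeabilise bacteria, and 5 of 8 lys lysozymes were lower. Of 6 abf genes, a family of defensin-like peptides, 4 passed the filter and all 4 were higher. A gene low on the first day could pass through the sixth-day libraries, so that count gives no direction for the abf family. Of the spp genes 7 were higher, and the split under library totals was 10 higher and 11 lower. spp-4 was at 0.309, 0.483 and 0.336 CPM in old animals, against 47.8, 20.9 and 55.1 CPM in young ones, 109-fold lower. ilys-3, an invertebrate-type lysozyme, was at 194, 168 and 91.5 CPM in old animals and 0.612, 0.135 and 14.3 CPM in young ones, so that the ages were well apart even though the young libraries spread widely. lys-7 and abf-2 were chosen after their values were seen, and they rose 6.03-fold and 14.4-fold.

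Infection response genes also moved in both directions. Of 32 tested pals genes, several of which respond to intracellular infection, 18 were higher and 1 lower, with a median log2 change of 1.4, and 16 to 18 were higher with any 1 library left out (2 were lower without first-day wild-type replicate 2). Of 8 irg genes, known from responses to bacterial pathogens, 4 were lower and 1 higher, and that 1 was not called without sixth-day wild-type replicate 1 or 3, without first-day wild-type replicate 1 or 2, or without any 1 of the sixth-day fog-2(lf) libraries. irg-4 was at 1.17, 5.48 and 1.07 CPM on the sixth day, against 72.7, 39.7 and 78 CPM on the first. dct-16 was 14.9-fold lower, at 36.4, 52.5 and 41.5 CPM in old hermaphrodites and 696, 564 and 681 CPM in young ones, and its fall was shallower in fog-2(lf) by 2.15 ± 0.4 on the log2 scale (edgeR interaction, adjusted p = 0.0177). dod-6 was at 109.9, 70.1 and 46.8 CPM on the sixth day, against 2.37, 9.27 and 7.83 CPM on the first.

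Among F-box genes that passed the low-count filter, more were higher than lower. Their products bring proteins to ubiquitin ligases. Of 420 genes in the list of ubiquitin and F-box genes, 327 passed, and a gene could pass because it was high in 1 group. The counts of these families are therefore a description only. Of 86 tested fbxb genes, 37 were higher and 2 lower (median 1.1), although 24 were higher without sixth-day wild-type replicate 1 and 5 lower without first-day wild-type replicate 2, and only 1 was lower without sixth-day replicate 2 or 3 or first-day replicate 3 of the wild type. Of 30 fbxc genes, 17 were higher and 5 lower, against 22 and 2 under library totals, and the larger fbxa branch gave 37 higher and 17 lower, against 53 and 10 under library totals. Many members of these families are close copies of each other, and how their shared reads were divided among them was not tested.

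Collagens of the cuticle held both steep falls and clear rises. The 119 collagen genes that passed the low-count filter summed to 737 to 1212 CPM in sixth-day libraries, against 12110 to 28836 CPM in first-day libraries. Of these genes 51 were lower and 32 higher (median -0.44). The col genes made up most of the falls, with 49 of 102 lower and 18 higher. Both tested bli collagens were lower too (median -3.63), or 1 without first-day wild-type replicate 2. In contrast, 9 of the 10 dpy collagens and all 3 sqt collagens were higher and none was lower. col-20 was at 3.12, 2.77 and 7.8 CPM on the sixth day, against 644, 2168 and 507 CPM on the first, 242-fold lower (log2 change -7.92 ± 0.73, edgeR adjusted p = 2.61e-05). col-19, a marker of the adult cuticle chosen after its values were seen, was at 5.38, 6.7 and 7 CPM in old hermaphrodites, against 457, 1305 and 302 CPM in young ones. col-93, col-80 and col-124 fell 381-fold, 134-fold and 120.1-fold. For these genes first-day replicate 2 was the highest library, and the first-day libraries without it still lay far above all sixth-day libraries. In fog-2(lf), col-20 was at 4.35, 2.37 and 5.15 CPM on the sixth day and 1938, 1196 and 2394 CPM on the first, and its interaction of -0.94 ± 0.81 was not called (edgeR adjusted p = 0.49).

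In the opposite direction, dpy-14, a collagen needed for normal body shape, was at 52, 59.9 and 24.3 CPM in sixth-day wild type, against 2.12, 0.236 and 2.47 CPM in first-day wild type. col-183 was at 34, 16.7 and 8.47 CPM on the sixth day and 0.468, 0.236 and 1.55 CPM on the first. sqt-3, a collagen chosen after its values were seen, rose 4.92-fold. All 3 had no overlap between the ages.

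**Figure D3:**
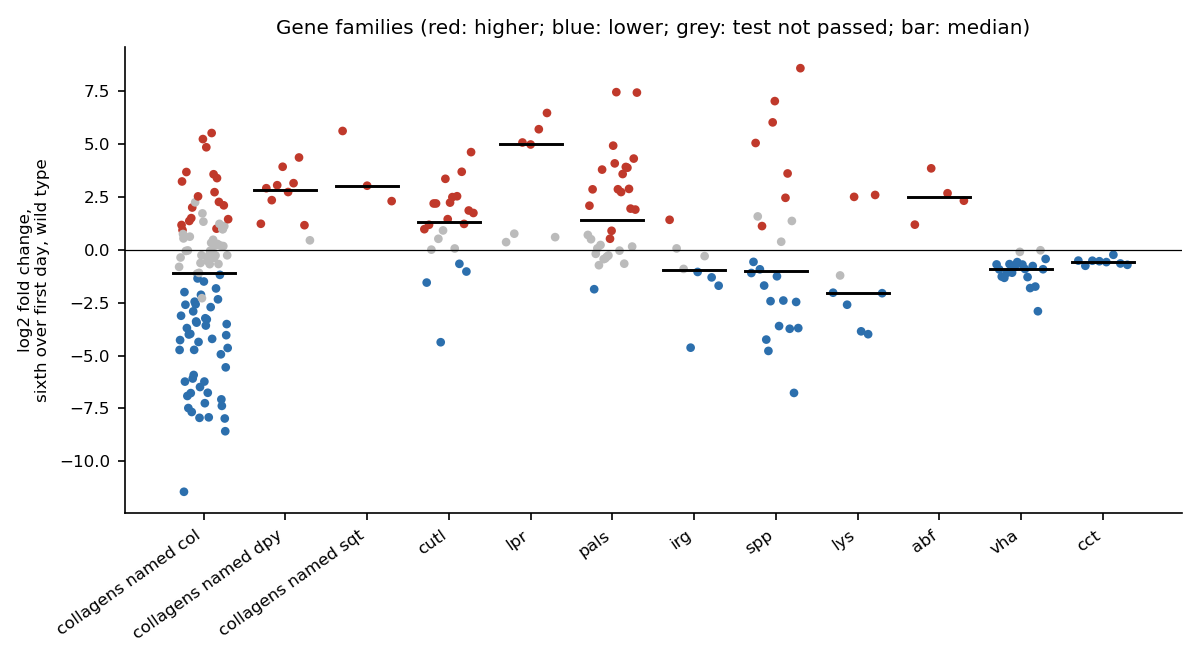
Log2 fold change with age in wild type (vertical axis) for each tested member of selected gene families, in red where higher, blue where lower and grey where not called, with the family median as a bar. The col collagens spread to both sides with a median of -1.11, the dpy and sqt collagens have medians of 2.82 and 3.03, and the pals genes a median of 1.4.

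Genes of the apical extracellular matrix, the layer that underlies and shapes each new cuticle, were more often higher than lower among those tested. Of 57 matrix and molting genes 48 passed the low-count filter. Of those, 28 were higher and 6 lower, or 3 lower without sixth-day wild-type replicate 3, and the median log2 change was 1.38. A gene low on the first day could pass through the sixth-day libraries, so these counts are a description only. All 57 genes summed to 202 to 358 CPM in sixth-day libraries, against 97.8 to 167 CPM in first-day libraries. fbn-1, a fibrillin-like matrix protein, was at 21.2, 36.1 and 20.5 CPM in old hermaphrodites, against 0.791, 0.539 and 2.01 CPM in young ones, 24.4-fold higher (log2 change 4.61 ± 0.56, edgeR adjusted p = 0.000131). The molting protease inhibitor mlt-11 was at 19.1, 38 and 17.3 CPM on the sixth day, against 1.08, 0.573 and 2.47 CPM on the first. noah-1, a zona pellucida-domain matrix protein, was at 40.3, 61.3 and 29.9 CPM in sixth-day libraries and 6.51, 4.85 and 7.37 CPM in first-day libraries, and its partner noah-2 rose 5.95-fold. nas-37, the astacin protease that helps shed the old cuticle, was lower, at 14.6, 11.6 and 9.32 CPM on the sixth day, against 33.7, 33 and 74.2 CPM on the first.

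Of 85 hedgehog-related and patched-related genes, many of which act in epidermal secretion and molting, 57 passed the low-count filter. Of those, 30 were higher and 13 lower (median 0.82), against 34 and 8 under library totals, with 8 lower without sixth-day wild-type replicate 1 or 3. The summed level of the list went the other way, at 1109 to 1335 CPM in sixth-day libraries, against 1446 to 1708 CPM in first-day libraries. Within the list, 13 of 31 grl genes passed the filter, and of those 9 were higher and 2 lower (1 lower without sixth-day replicate 1 or 3 or first-day replicate 1 of the wild type). A gene low on the first day could pass through the sixth-day libraries, so the counts of the list and of its families are a description only. Of 23 ptr genes 10 were higher and 5 lower (3 lower without sixth-day wild-type replicate 1), against 13 and 2 under library totals. ptr-22, a patched-related membrane protein, rose 3.03-fold, whereas grd-3, a hedgehog-like secreted protein, was at 7.72, 6.73 and 7.15 CPM in old animals and 76.2, 89.8 and 44.5 CPM in young ones. General markers of the epidermis and its attachments were less uniform, with 7 of 18 higher and 2 lower, against 13 and 1 under library totals.

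Several matrix genes moved less in females. In fog-2(lf), 17 of the 48 matrix genes had an age change below the wild-type one, but 7 did without sixth-day wild-type replicate 2 or sixth-day fog-2(lf) replicate 1, 9 without first-day fog-2(lf) replicate 1 and 10 without first-day fog-2(lf) replicate 3. fbn-1 was at 7.88, 19.4 and 10.8 CPM in sixth-day females and 4.89, 2.03 and 2.74 CPM in first-day females (fog-2(lf)). Its interaction call was lost without sixth-day wild-type replicate 2 and without replicate 1 of either age of fog-2(lf). The interaction calls of mlt-11, noah-1 and noah-2 were also lost without some single libraries. Collagens and matrix proteins of this kind are also made in embryos and larvae. Genes switched on in early embryos are given beside them as a description only. That list cannot speak for genes first switched on in late embryos or larvae. Of 47 early-embryo genes 35 passed the filter, and of those 7 were higher and 5 lower, with a median of 0.06. Without first-day wild-type replicate 2, 8 were lower, and under library totals 14 were higher and 5 lower. All 47 summed to 252 to 261 CPM in sixth-day libraries, against 210 to 290 CPM in first-day libraries. end-1, which specifies the embryonic endoderm, was at 0.463, 0.612 and 0.55 CPM on the sixth day and 0.036, 0.101 and 0.173 CPM on the first. In the other direction, the 2 tested tbx genes were both lower, with a median log2 change of -2.38. The levels of med-1, hlh-25, hlh-27 and tbx-35 were at or near 0. The part of embryos in the changes of matrix, cilium, pharynx and muscle genes was not tested.

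Most contractile genes of muscle were lower, and genes for its excitation were more often higher. Of 24 tested genes of the muscle filaments, 18 were lower and 1 higher (median -1.38), and they summed to 3964 to 4332 CPM in sixth-day libraries, against 8650 to 10909 CPM in first-day libraries. The falls took in 5 of 6 genes for myosin, paramyosin and their light chains, 7 of 8 for troponins and tropomyosin, 3 of 4 actins and all 3 calponin-like genes. The body wall myosin unc-54 was at 151, 182 and 134 CPM in old hermaphrodites, against 217, 889.7 and 583 CPM in young ones, with a log2 change of -1.85 ± 0.41 (edgeR adjusted p = 0.00455). clik-1, a calponin-like protein of the filaments, was at 49.1, 54.2 and 40 CPM on the sixth day, against 412, 443 and 329 CPM on the first, 8.26-fold lower. The troponin C gene pat-10 was at 156, 163 and 118 CPM in sixth-day libraries and 828, 634 and 668 CPM in first-day libraries, and the light chain mlc-3 fell 4.32-fold. Replicates were tight for clik-1 and pat-10, and less so for unc-54, whose ages still did not overlap.

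The 1 filament gene that was higher was ttn-1, a giant titin-like protein, at 23, 38.2 and 40.2 CPM on the sixth day, against 1.69, 20 and 9.26 CPM on the first. Its call was weak: the edgeR adjusted p was 0.0454, and it became 0.104 without sixth-day wild-type replicate 2, 0.112 without replicate 3, 0.103 without first-day wild-type replicate 3 and 0.125 with the 6 wild-type libraries alone. Without first-day wild-type replicate 2, 3 filament genes were higher. Of 23 genes for dense bodies and other muscle attachments, which tie the filaments to the cuticle, 8 were lower and 4 higher, or 2 higher without sixth-day wild-type replicate 2, and the direction flipped to 4 lower and 10 higher under library totals. The perlecan gene unc-52 was at 17.1, 32 and 24.5 CPM on the sixth day, against 26.4, 161 and 58.7 CPM on the first, so the ages overlapped, and its edgeR adjusted p of 0.0195 was 0.174 in limma on log2(TPM + 0.5). atn-1, the alpha-actinin of dense bodies, was at 24.1, 36.2 and 33 CPM in old animals and 65.8, 88.8 and 76.2 CPM in young ones.

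Of 22 genes for muscle excitation and calcium handling, 10 were higher and 1 lower (median 0.49). Their summed level did not rise, at 906 to 1026 CPM in sixth-day libraries, against 909 to 1250 CPM in first-day libraries. The member that fell was csq-1, the calcium-binding calsequestrin of the sarcoplasmic reticulum, at 38.2, 25.9 and 25.3 CPM on the sixth day, against 149, 120.4 and 148 CPM on the first. slo-1, a calcium-activated potassium channel found in muscle and neurons, was at 5.87, 7.76 and 6.45 CPM in old hermaphrodites, against 0.971, 1.99 and 1.9 CPM in young ones, 4.15-fold higher. dys-1, the worm dystrophin, was at 50.4, 74.6 and 53.6 CPM on the sixth day and 13.6, 25 and 34.9 CPM on the first. unc-36, an accessory subunit of calcium channels, was at 5.93, 5.8 and 5.63 CPM, against 2.66, 3.34 and 2.47 CPM on the first day. All 3 increases were absent from the calls in fog-2(lf), where the age changes were -0.17, -0.38 and -0.41 on the log2 scale, and the differences between genotypes were -2.22 ± 0.43 for slo-1, -1.67 ± 0.42 for dys-1 and -1.44 ± 0.28 for unc-36 (edgeR interaction, adjusted p = 0.0197, 0.0386 and 0.0214).

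In females (fog-2(lf)), 23 of 24 muscle filament genes were lower and none higher, where 3081 (21.1%) of all genes tested were lower and 2631 (18.1%) higher. The interaction was negative in 13 of the 24, but in 4 without sixth-day wild-type replicate 2, sixth-day fog-2(lf) replicate 2 or first-day fog-2(lf) replicate 3, in 5 without sixth-day wild-type replicate 3 or sixth-day fog-2(lf) replicate 1, in 6 without sixth-day fog-2(lf) replicate 3 or first-day fog-2(lf) replicate 1 and in 7 without first-day wild-type replicate 1. clik-1 had a log2 change of -3.05 in each genotype, and its interaction was -0.0048 ± 0.29.

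**Figure D4:**
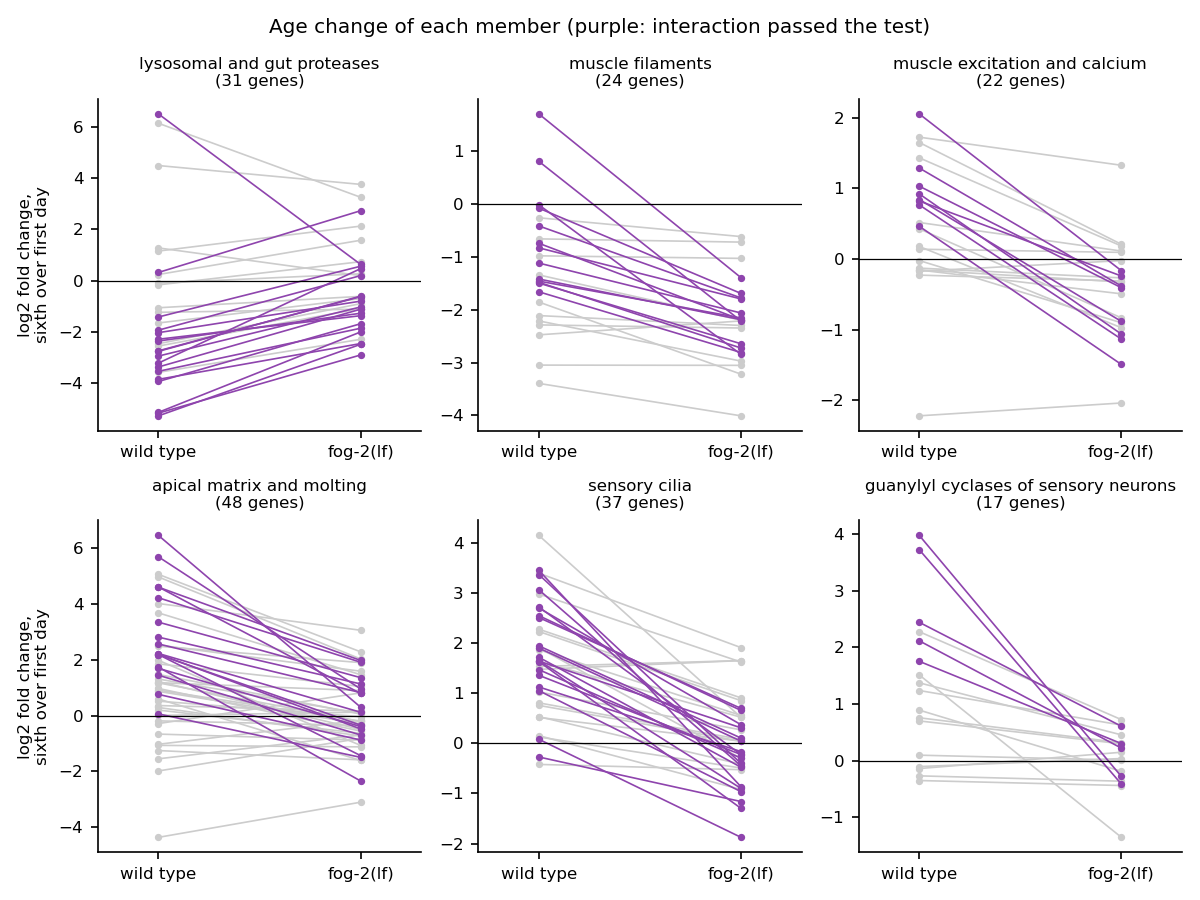
Log2 fold change with age (vertical axes) of each tested member of a list in hermaphrodites (wild type) and females (fog-2(lf)), joined by a line that is purple where the difference between genotypes was called and grey elsewhere. Most protease lines climb toward fog-2(lf), and most cilium, matrix and muscle lines descend, with cilium medians of 1.64 in hermaphrodites and 0.04 in females.

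Most genes of sensory cilia rose. Sensory neurons end in cilia that hold receptors for touch, odours and tastes, and intraflagellar transport builds them. Of 37 tested cilium genes, 31 were higher and 1 lower (none lower in most fits with 1 library left out), with a median log2 change of 1.64, and 25 to 31 were higher when any 1 library was left out. All 39 genes of the list summed to 110.2 to 131 CPM in sixth-day libraries, against 62.5 to 80 CPM in first-day libraries. Higher members came from every part of the machinery: 3 of 3 genes of transport complex A, 10 of 12 of complex B, 6 of 6 of the BBSome, 4 of 6 motor subunits, with 1 lower that was called neither under library totals nor without any 1 library other than first-day wild-type replicate 1 and sixth-day fog-2(lf) replicates 1 and 2, and 3 of 5 of the transition zone. dyf-2, of complex A, was at 5.13, 5.35 and 5.5 CPM in old hermaphrodites, against 1.33, 1.95 and 1.84 CPM in young ones, with a log2 change of 1.64 ± 0.22 (edgeR adjusted p = 0.000234). che-11, of the same complex, was at 1.33, 1.93 and 1.1 CPM on the sixth day, against 0.036, 0.202 and 0.173 CPM on the first. che-3, the heavy chain of the return motor dynein-2, was at 2.1, 4.09 and 1.62 CPM in sixth-day libraries and 0.432, 0.977 and 0.978 CPM in first-day libraries. dyf-5, a kinase that limits cilium length, rose 6.59-fold and arl-13, a GTPase of the ciliary membrane, rose 2.77-fold. daf-19, the RFX factor that switches on cilium genes, shifted less, at 38.7, 41.9 and 39.9 CPM on the sixth day and 26.5, 31.7 and 26 CPM on the first.

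In fog-2(lf) the same list gave 5 higher and 5 lower, with a median of 0.04. The interaction was negative in 19 of the 37 genes, but in 5 without sixth-day wild-type replicate 2, 6 without first-day fog-2(lf) replicate 3, 7 without sixth-day fog-2(lf) replicate 1 and 11 without sixth-day wild-type replicate 1 or sixth-day fog-2(lf) replicate 2. dyf-2 was at 2.68, 2.49 and 3.32 CPM in sixth-day females and 2.22, 2.56 and 2.06 CPM in first-day females (fog-2(lf)), which gave an interaction of -1.33 ± 0.3 (edgeR adjusted p = 0.0312).

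Other genes of sensory neurons and their glia that passed the low-count filter were more often higher than lower. Few members of these families are detected in whole animals, and a gene could pass the filter because it was high in 1 group, so these counts are a description only. Of 31 receptor guanylyl cyclases 17 passed, and of those 8 were higher and none lower. gcy-22, a receptor of the salt-sensing ASE neuron, was at 1.27, 2 and 1.83 CPM on the sixth day, against 0.108, 0.0674 and 0.23 CPM on the first, while in fog-2(lf) it was at 0.214, 0.424 and 0.57 CPM on the sixth day and 0.354, 0.693 and 0.588 CPM on the first. The genotype difference was -4.14 ± 0.69 (edgeR interaction, adjusted p = 0.0153). Of 1289 chemoreceptor genes in the annotation 71 passed, with 31 higher and 12 lower. Genes of synapses and transmitter release, all 26 of which were tested, gave 6 higher (23.1%, against 23.4% of all genes) and 4 lower (median 0.11). Under library totals these were 13 and 1, and with the TMM factors 2 were lower without sixth-day wild-type replicate 1 or 2. Among 10 glial genes 4 were higher and none lower, among them pros-1, the Prospero factor of sheath glia, at 2.13, 1.87 and 1.9 CPM in old hermaphrodites, against 0.468, 0.371 and 0.633 CPM in young ones, with a difference of -1.84 ± 0.45 between genotypes (edgeR interaction, adjusted p = 0.0367).

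Insulin-like peptides were detected in part. Of 39 genes 23 passed the filter, and 13 of those were higher and none lower (median 1.71), but genes low on the first day could pass through the sixth-day libraries, so this count is no evidence of a direction. ins-7, which acts as an agonist of the insulin receptor, was at 6.12, 7.8 and 7.25 CPM on the sixth day, against 3.24, 2.63 and 4.2 CPM on the first. ins-2 was at 2.1, 2.48 and 1.01 CPM in old animals and 0.036, 0.0337 and 0.345 CPM in young ones.

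Pharyngeal genes depended on 1 library. Of 13 tested, 3 were higher and none lower, but 10 were higher without first-day wild-type replicate 2. myo-2, a myosin of pharyngeal muscle, was at 9.21, 7.09 and 7.49 CPM in sixth-day wild type, against 0.54, 15.7 and 3.16 CPM in first-day wild type, and its log2 change of 0.28 ± 0.75 (edgeR adjusted p = 0.791) was 2.16 without first-day replicate 2. pha-4, the FoxA factor that specifies the pharynx, was at 9.42, 8.76 and 13.9 CPM on the sixth day, against 3.31, 1.99 and 3.22 CPM on the first. All 4 abu genes that passed the filter, of 14 that encode proteins of the pharyngeal cuticle, were higher, but they were low on the first day and could pass through the libraries where they were high, so the count gives no direction for the family. abu-14 was at 5.53, 4.41 and 7.55 CPM in old hermaphrodites and 0.144, 0.169 and 0.575 CPM in young ones. Members of that family resemble each other closely, so single values are uncertain.

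Germline genes moved little, and their counts hung on the scaling. In the oocyte and eggshell lists the balance of calls changed direction with it. The mitosis, replication and meiosis lists had more higher than lower under both scalings. Of 53 mitosis and cell cycle genes, 14 were higher and 5 lower (3 lower without sixth-day wild-type replicate 1 or 2), which became 50 higher and none lower under library totals. The 36 DNA replication genes gave 6 higher and 4 lower, which became 32 and 0, and with the TMM factors 2 were higher without sixth-day wild-type replicate 3 and 3 without first-day wild-type replicate 2 or 3. Meiosis genes gave 10 higher and 3 lower of 34 (29 and 0 under library totals, and 6 higher without sixth-day wild-type replicate 3 under the TMM factors). Oocyte and maternal RNA-binding genes gave 2 higher and 9 lower of 24, against 15 higher and 2 lower under library totals, so the median of -0.14 became 0.28, and 1 was higher without sixth-day wild-type replicate 2 or 3, first-day wild-type replicate 3, sixth-day fog-2(lf) replicate 2 or 3, or first-day fog-2(lf) replicate 1 or 3. Eggshell genes gave 2 higher and 4 lower of 20, against 15 and 1 under library totals, and 4 were higher without sixth-day wild-type replicate 1. syp-1, of the synaptonemal complex, was at 84.9, 79.3 and 86.9 CPM in old hermaphrodites, against 61.1, 74.2 and 61.3 CPM in young ones. gld-1, a translational repressor in the germ line, was at 633, 725 and 739 CPM on the sixth day and 926, 1287 and 894 CPM on the first, and cbd-1, an eggshell protein, at 1950.5, 2147 and 2291 CPM, against 2573, 3284 and 2949.8 CPM on the first day. The fold changes were 1.28 for syp-1 and drops of 1.48-fold for gld-1 and 1.38-fold for cbd-1, and the calls of gld-1 and cbd-1 were lost under library totals.

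Sperm genes other than the major sperm proteins were called at shares near those of all genes. Of 69 such genes 39 passed the low-count filter. Of those, 11 (28.2%, against 25.4% of all genes) were lower and 7 (17.9%, against 23.4%) higher, with a median of -0.37. The direction flipped to 6 lower and 14 higher under library totals. The lower count was 4 without sixth-day replicate 2 or 3 or first-day replicate 2 of the wild type, 5 without sixth-day wild-type replicate 1 and 7 without sixth-day fog-2(lf) replicate 2, and the higher count was 3 without sixth-day replicate 3 and 4 without first-day replicate 1 or 3 of the wild type. All 69 genes summed to 325 to 378 CPM in sixth-day libraries, against 334 to 531 CPM in first-day libraries, so the ages overlapped. spe-4, a presenilin-like protein of sperm, was at 0.185, 0.354 and 0.0917 CPM in sixth-day hermaphrodites, against 1.37, 2.49 and 2.36 CPM in first-day ones (log2 change -3.28 ± 0.53, edgeR adjusted p = 0.000699). spe-44, a factor that starts the sperm program, was at 18.1, 17.4 and 20.2 CPM on the sixth day and 25, 29.1 and 25.3 CPM on the first, a call that was lost under library totals. Of 31 major sperm protein genes 13 passed the filter and 11 of them were lower, which is a description only, since a gene could pass through 1 high group, and only 1 was lower without first-day wild-type replicate 2, 4 without sixth-day replicate 2, 5 without sixth-day replicate 3 and 6 without sixth-day replicate 1. The sum of all 31 was 0.87 to 4.91 CPM in sixth-day libraries, against 2.09, 5.98 and 239 CPM in the first-day libraries, where the highest was replicate 2.

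Protein synthesis and folding were lower relative to the median gene and flipped under library totals. Of 41 translation initiation, elongation and release factors, 25 were lower and 1 higher (median -0.28), against 2 lower and 14 higher under library totals (median 0.14). Of 32 tRNA synthetases, 21 were lower and none higher, against 2 and 11. Cytosolic chaperones gave 24 lower and 2 higher of 38, against 6 and 8. Within them all 8 subunits of the CCT chaperonin, which folds actin and tubulin, were lower (median -0.56), and 2 of the 8 were under library totals, with none higher. erfa-1, the release factor, was at 166, 174 and 183.4 CPM on the sixth day, against 307, 361 and 254 CPM on the first. aars-1, the alanyl-tRNA synthetase, was at 25.8, 25.4 and 24.9 CPM in old hermaphrodites and 50.2, 56.8 and 45.3 CPM in young ones, and cct-2 fell 1.69-fold. hsp-90 and hsp-12.6 were chosen after their values were seen. hsp-90, the most abundant chaperone named here, fell 1.52-fold, a call that was lost under library totals, whereas the small heat shock protein hsp-12.6 was at 12.4, 10.7 and 16.3 CPM on the sixth day, against 2.48, 1.18 and 5.64 CPM on the first.

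**Figure D5:**
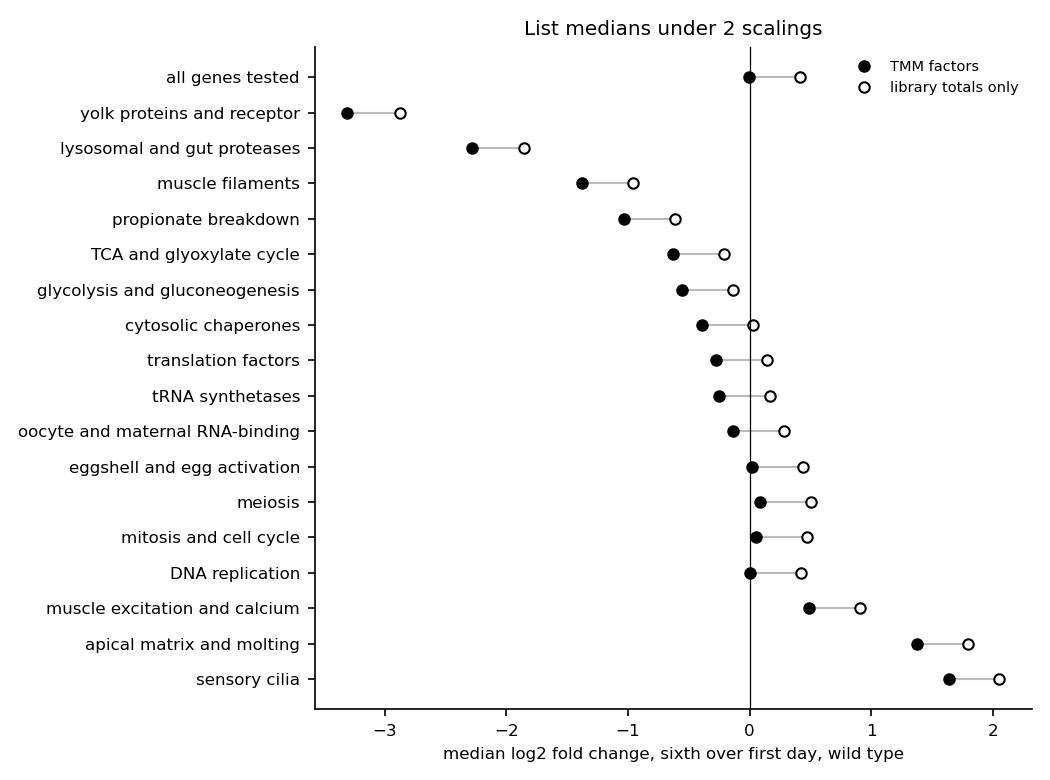
Median log2 fold change with age in wild type (horizontal axis) of selected lists under TMM factors (filled) and under library totals alone (open). The lists move right by similar amounts, 0.42 over all genes, so the oocyte, translation, tRNA synthetase and chaperone lists cross 0, whereas protease and yolk lists stay below it and the cilium list stays above it.

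Among genes that averaged 10 CPM or more, the steepest rises included clx-1, lips-11 and spp-9. clx-1 was at 92, 57.4 and 197 CPM in sixth-day libraries, against 0.072, 0.169 and 0.46 CPM in first-day libraries (log2 change 9.12 ± 1.34, edgeR adjusted p = 0.000398). lips-11, a member of the lipase-related lips family, was at 25.7, 22.9 and 29.7 CPM on the sixth day, against 0, 0.101 and 0.115 CPM on the first. spp-9, a saposin-like gene, was at 8.93, 13.6 and 59.7 CPM in old hermaphrodites and 0.036, 0 and 0.23 CPM in young ones, and it was called in fog-2(lf) as well. C50F7.5 was at 274, 202 and 361 CPM on the sixth day, against 4.35, 3.03 and 19.2 CPM on the first, 32.8-fold higher, and K09F6.13 rose 22.4-fold. K09F6.13 was at 16, 25.1 and 24.2 CPM in sixth-day wild type and 0.576, 0.674 and 1.78 CPM in first-day wild type, whereas in fog-2(lf) it was at 2.53, 3.08 and 4.14 CPM on the sixth day and 0.58, 1.12 and 1.34 CPM on the first, a difference of -2.81 ± 0.59 (edgeR interaction, adjusted p = 0.025). Among the falls that were not collagens, pud-3 was at 0.556, 1.1 and 1.53 CPM in old animals, against 528, 83.1 and 323 CPM in young ones, 292-fold lower.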

How the data were processed

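Polyadenylated RNA of pooled whole animals was sequenced as single short reads, and kallisto was run by the authors on the WBcel235 transcriptome, with an assumed fragment length. The deposited files give, per isoform, estimated counts and TPM (length-scaled shares of a library), both as the authors' kallisto run made them. Estimated counts of 32905 isoforms were summed to 22059 genes (307 isoforms that matched no gene stood for themselves) and rounded. kallisto divides reads shared by near-identical genes by its own estimate, so single values of close paralogs are uncertain.

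The main test was edgeR 4.0.16 in R 4.3.3, quasi-likelihood with TMM factors and filterByExpr, fitted to age, genotype and their product over all 12 libraries, with Benjamini-Hochberg adjustment and a threshold of 0.1. The standard error (SE) of a log2 change is its absolute value over the square root of F. The labels and methods give 3 biological replicates per condition. On simulated counts for the 14576 genes, with few genes changed, the test recovered 50% of 2-fold and 100% of 4-fold changes in wild type, with 17 false calls. Totals were 21162593 to 38775999 estimated counts per library.

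Gene lists were written from textbook knowledge, and the comparison and the lists were chosen with earlier results of these data known. Lists carry counts and medians and no test. Genes named were up to 6 called members with the largest change per list at a mean of at least 10 CPM, or 1 CPM where none reached it, tissue markers, and the 15 largest increases and decreases among non-overlapping genes with at least 10 CPM; 6 others are marked as chosen after their values were seen. Alternatives were DESeq2 1.42.0, RLE factors, library totals, no filter, a threshold of 0.05, limma 3.58.1 on log2(TPM + 0.5, 0.1 or 1), the 6 wild-type libraries alone, a replicate block and leaving out each library.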

Additional observations from a re-analysis of the deposited data

Results flagged for a closer look

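Of the 100 genes named, 41 had an age change in fog-2(lf) that differed from the one in wild type by the edgeR interaction test (adjusted p under 0.1 over all genes), 22 in the positive and 19 in the negative direction. Values here are log2 age change in fog-2(lf) minus log2 age change in wild type. These genes were mostly picked for large changes in wild type, a choice that by itself favours a smaller change in the other genotype.

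Among digestive, lysosomal, yolk and metabolic genes that kept the call with each library left out, the differences were 1.58 for vha-6, 1.39 for asp-1, 3.13 for cpr-9, 2.79 for ctsa-3.1, 1.96 for vit-2, 2.37 for nuc-1, 2.68 for lipl-5 and 3.90 for asah-1. Enzymes and effectors followed, with 2.42 for elo-2, 1.44 for pmt-2, 1.49 for gldc-1, 0.52 for cts-1, 1.86 for gst-27, 3.19 for cyp-35A5, 2.33 for clec-50 and 2.15 for dct-16. All of these fell in wild type and fell less, or were not called, in fog-2(lf).

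Among genes that rose in wild type and kept the call with each library left out, the differences were -3.28 for clec-266, -2.22 for slo-1, -1.67 for dys-1, -1.44 for unc-36, -1.33 for dyf-2, -4.14 for gcy-22, -1.84 for pros-1 and -2.81 for K09F6.13.

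The other 17 lost the call without at least 1 library. They were, on the positive side, 1.11 for ges-1, 0.76 for pyk-2, 1.81 for ugt-22, 4.55 for fmo-2, 2.66 for spp-4 and 0.51 for erfa-1. On the negative side they were -3.04 for ifp-1, -2.63 for fbn-1, -2.31 for mlt-11, -1.68 for noah-1, -1.75 for noah-2 and -3.097 for ttn-1 among gut filament, matrix and muscle genes, and -2.19 for che-3, -2.94 for dyf-5, -1.76 for arl-13, -2.78 for abu-14 and -3.87 for ins-2 among cilium, pharynx and insulin genes. Under library totals the calls of cts-1, ges-1, pyk-2 and erfa-1 were lost. No explanation was tested for any of these differences.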

How the results depend on the processing

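Scaling decided the balance of directions. Under library totals 7613 genes were higher and 1784 lower with age in wild type, and limma on log2(TPM + 0.5), log2(TPM + 0.1) and log2(TPM + 1), which keeps the scale of the totals, gave 7580, 7548 and 7588 higher and 1787, 1782 and 1799 lower. With 1 library left out, 2788 to 3606 genes were higher and 3061 to 3845 lower. Interaction calls numbered 1068 at an adjusted p under 0.05, 3789, 3622 and 3808 in limma on TPM with 0.5, 0.1 and 1 added, and 1021 to 3302 with 1 library left out. Replicate numbers did not pair the samples: deviations of same-numbered wild-type libraries correlated at -0.032, -0.056 and -0.131, and a replicate block gave 7164 calls with age in wild type, 3524 higher and 3640 lower. The 6 wild-type libraries alone gave 2544 higher and 2943 lower of 13777 genes. Of 100 named genes, 92 kept direction and call with age in wild type under all alternatives other than leaving out a library, and 96 with each library left out; only myo-2 reversed, to -0.26 without first-day replicate 1 and -0.04 without first-day replicate 3 of the wild type, and it was called at 2.16 without first-day replicate 2. Calls were lost for ifo-1, ifp-1, ttn-1, unc-52, gld-1, cbd-1, spe-44 and hsp-90 under the settings that change their scale, spread or threshold. With 3 libraries per condition, simulated 2-fold changes were recovered for 50% of genes. That simulation changed few genes and gave all genes the same spread, whereas 48.8% of genes were called in the data. Its share therefore does not measure the recovery in these data.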
